A study of Mus musculus with 12 samples.

Results

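The genes described here are 10 genes of the ATF4 and unfolded protein stress response, measured in cerebral vessels of mice: Atf3, Atf4, Ddit3, Trib3, Chac1, Asns, Hspa5, Xbp1, Ppp1r15a, and Sesn2. They are a list of names for this response, set with earlier results of these data known, and all 10 were among the 19150 genes that passed the low-count filter, of 54119 genes summed. Vessels were isolated from the brains of C57BL6 wild type mice aged 2–3 months that had received an intraperitoneal injection of PBS or of LPS at 10 mg/kg, a bacterial lipopolysaccharide used to induce acute systemic inflammation. There were 4 groups of 3 libraries: PBS, and LPS with vessels taken after 15 min, after 30 min, or after 4 h. Each library pooled the vessels of 1 male and 1 female, so 6 mice made up a group and the sexes cannot be told apart. The time of death of the PBS mice is not given in the sources used here. Endothelial and mural markers were abundant in every library, while markers of astrocytes, neurons, and oligodendrocytes were also present, so the values are those of a mixed vessel preparation. In such bulk samples, fewer cells of a type and less RNA per cell cannot be told apart.

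When unfolded proteins, amino acid shortage, or double-stranded RNA activate one of the kinases of the translation factor eIF2, general translation slows while translation of the transcription factor ATF4 increases. ATF4, with partners of the C/EBP family, then induces genes of amino acid supply together with ATF3, CHOP, and the phosphatase subunit GADD34, which restores translation. Unfolded proteins in the endoplasmic reticulum (ER) also activate the sensors IRE1 and ATF6, which act through XBP1 and through ER stress elements in promoters to raise chaperones such as BiP.

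Levels are given as CPM, counts scaled to a common library total, here with TMM factors, which compare genes across libraries on the assumption that most genes do not change. Scaling by library size alone shifted the median log2 fold change of all genes by -0.024 at 15 min, -0.165 at 30 min, and -0.704 at 4 h against PBS, by -0.141 from 15 min to 30 min, and by -0.539 from 30 min to 4 h. Changes are therefore relative to the bulk of the genes. Each direction or call of the 10 genes that differs under library size scaling is named. So is each call of a higher level that this scaling loses among the pathway genes named. Uncalled values of those genes between 0 and the shift would lie near or below 0 under it. A gene was called when edgeR found its change to be beyond 1.5-fold (0.585 on the log2 scale) at an adjusted p below 0.05 over all 19150 genes. The 3 LPS groups were compared with the same 3 PBS libraries. The libraries held 18.3 to 25.9 M fragments.

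At 15 min, 2 of the 10 genes were called higher than in PBS, Atf3 and Ppp1r15a, and 0 lower, where 3.31% of all genes tested were called higher and 0.872% lower. At 30 min, 5 of 10 were called higher, with Atf4, Ddit3, and Hspa5 added (background 3.78% higher and 0.799% lower), and 0 lower. At 4 h, 9 of 10 were called higher, all except Trib3 (background 19% higher and 13.8% lower). Under library size scaling the counts of higher calls were 2, 3, and 7, since Ddit3 and Hspa5 at 30 min and Ddit3 and Sesn2 at 4 h were not called. The median log2 fold change of the 10 genes was 0.21, 0.65, and 2.23 at the 3 times, beside -0.002, -0.010, and -0.010 over all genes tested. By CPM, the libraries did not overlap with PBS for 6, 8, and 10 of the 10 genes, where 49.3%, 46.7%, and 70.9% of all genes did not. With no fold limit, 6, 8, and 9 of the 10 genes passed against PBS in either direction (background 38.6%, 36.9%, and 68.5%).

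The genes followed different courses. Atf3 and Ppp1r15a were called higher at 30 min than at 15 min, and they were the 2 of the 10 called in that comparison (background 2.69% higher). Both were called lower at 4 h than at 30 min, where 11.8% of all genes were. In that same comparison 6 of the 10 genes were called higher, Atf4, Trib3, Chac1, Asns, Hspa5, and Xbp1 (background 16.9%). Ddit3 and Sesn2 were not called between 30 min and 4 h. With no fold limit, 8 of 10 genes passed between 15 min and 30 min (background 37.4%) and 10 of 10 between 30 min and 4 h (background 65.3%).

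**Figure D1:**
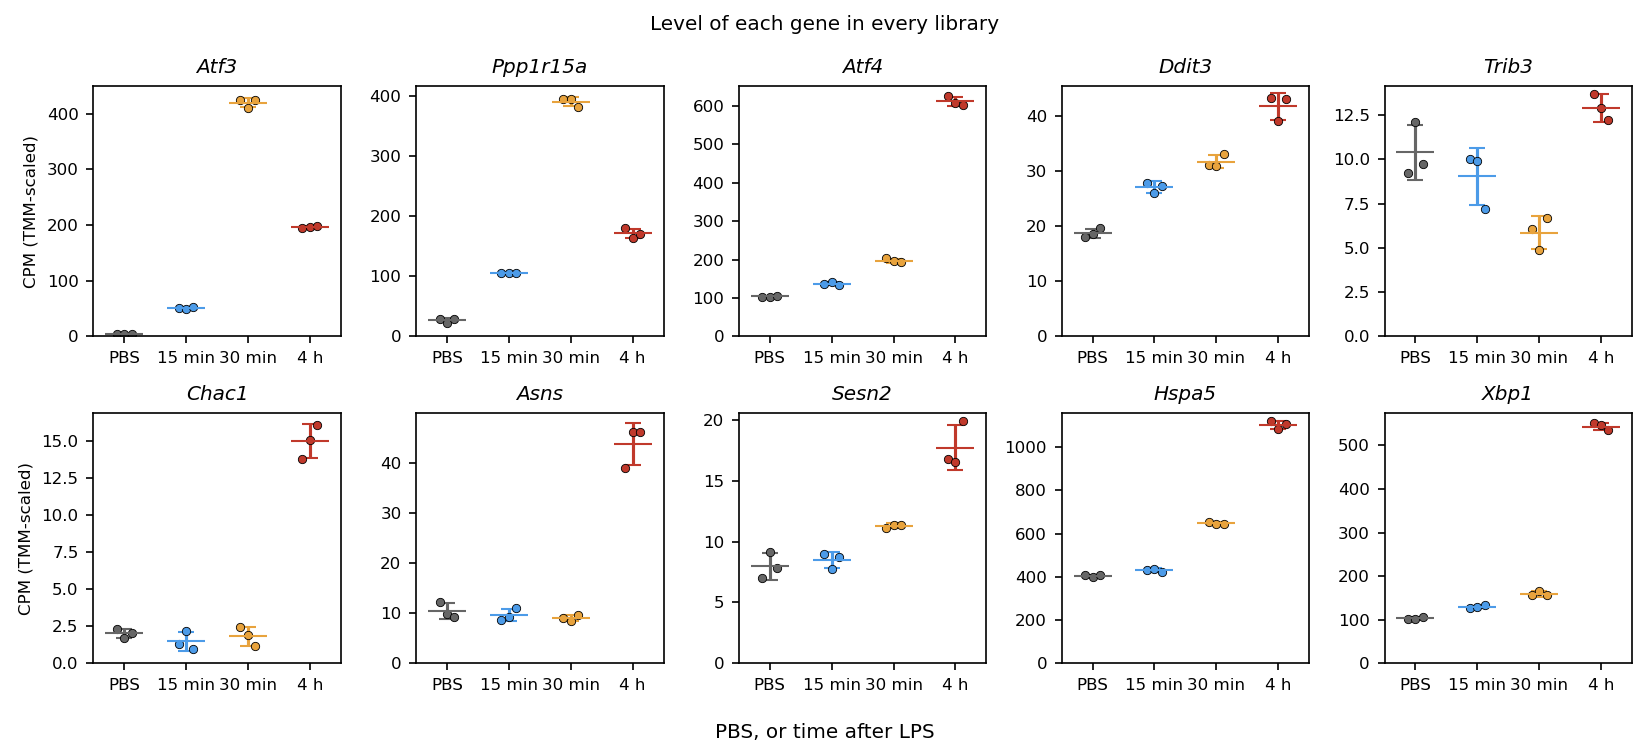
TMM-scaled CPM of the 10 genes (1 panel each, linear axis from 0) in PBS and at the 3 times after LPS. Points are the 3 libraries of a group, the horizontal line is their mean, and the bars are the SD. Atf3 and Ppp1r15a are highest at 30 min (means of 420 and 391 CPM), while Atf4, Xbp1, Hspa5, Chac1, and Asns are highest at 4 h.

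Atf4 (chr15:80255184-80257541, plus strand, GENCODE M21 on GRCm38) encodes the transcription factor at the centre of the response, and its mRNA level was higher in each successive group. It measured 103, 103, and 105 CPM in PBS, 137, 141, and 134 at 15 min, 203, 196, and 193 at 30 min, and 626, 607, and 602 at 4 h. No library of one time overlapped with a library of another time. The log2 fold change against PBS was 0.40 (SE 0.0295) at 15 min, which was not called, 0.93 (SE 0.0292, adjusted p 3.77e-10 by edgeR's quasi-likelihood test) at 30 min, and 2.56 (SE 0.0292, adjusted p 1.33e-25) at 4 h, a 5.90-fold difference. Most of the increase came after 30 min, and between 30 min and 4 h the log2 difference was 1.63 (SE 0.0280, adjusted p 1.07e-20). Because ATF4 activity depends on translation of its mRNA, these values do not measure ATF4 protein.

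Atf3, which encodes a stress-induced repressor of the same bZIP family and is itself a target of ATF4, had the largest change of the 10 genes at all 3 times. Its levels were 3.97, 4.32, and 3.74 CPM in PBS, 51.0, 49.5, and 52.2 at 15 min, 425, 410, and 424 at 30 min, and 194, 196, and 198 at 4 h. The groups were far apart and replicates lay close together, with 98 to 128 fragments a library in PBS and 9488 to 9817 at 30 min. Atf3 was 12.6-fold higher than PBS at 15 min, 104-fold at 30 min, and 48.7-fold at 4 h. From 30 min to 4 h it fell by 1.10 on the log2 scale (SE 0.0295, adjusted p 2.88e-14 by edgeR).

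Ppp1r15a encodes GADD34, the inducible subunit that directs phosphatase 1 to eIF2. It measured 29.1, 23.0, and 29.5 CPM in PBS, 106, 106, and 105 at 15 min, 395, 395, and 382 at 30 min, and 180, 164, and 171 at 4 h. Like Atf3, it was already apart from PBS at 15 min and highest at 30 min. On the log2 scale the change against PBS was 1.97 (SE 0.0570, adjusted p 1.75e-15 by edgeR) at 15 min, 3.85 (SE 0.0550) at 30 min, and 2.66 (SE 0.0575) at 4 h. It fell by 1.19 (SE 0.0473, adjusted p 1.02e-11) from 30 min to 4 h, a call that was lost when average transcript length was taken into account (-0.74, adjusted p 0.0834). Ppp1r15b, the constitutive subunit of the same phosphatase, was not called before 4 h, when it went from 74.2 to 203 CPM, a rise of 1.45 (SE 0.0365, adjusted p 5.06e-17).

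The transcripts quantified for Ppp1r15a also differed in share at 15 min. Ppp1r15a-202 is an annotated transcript of 2809 bases in which the first of the 2 introns of Ppp1r15a-201, 603 bases long, is exonic. Of the TPM of the gene (abundance scaled for transcript length), this form held 4.62, 3.58, and 3.12% in the PBS libraries, 9.66, 9.26, and 8.40% at 15 min, 5.09, 3.93, and 4.57% at 30 min, and 2.23, 2.08, and 1.61% at 4 h. The 3 libraries of 15 min lay above all others and those of 4 h below all others. As a share of fragments the means were 6.39, 15.6, 6.69, and 4.07%. The share of Ppp1r15a-203, a form of 389 bases, also moved, though at 15 min (28.1 to 34.5%) it overlapped with PBS (22.9 to 35.6%). At 30 min it was 17.9 to 20.2%, below all other libraries, and at 4 h 38.6 to 47.2%, above all others. Its mean share of fragments was 1.32% at 30 min and 4.02% at 4 h. These transcripts were chosen after their values were seen, and a permutation test of 3 against 3 libraries cannot go below 0.10, so no test is given. Intron-holding transcripts of Ddit3, Atf4, and Xbp1 are plotted with Ppp1r15a-202. The transcripts of Hspa5, Asns, and Trib3 annotated as retained introns, whose mean shares were below 3% in every group, are not. Among the latter, Hspa5-205 at 15 min (0.480, 0.702, and 0.579%) also lay above PBS (0.442, 0.140, and 0.317%). Ddit3-202 had its highest mean at 15 min as well (9.96% ± 2.06, SD, n = 3) but overlapped with PBS (7.43% ± 1.42), and Atf4-203 differed little (7.41% ± 0.634 at 15 min, 6.45% ± 1.46 in PBS).

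**Figure D2:**
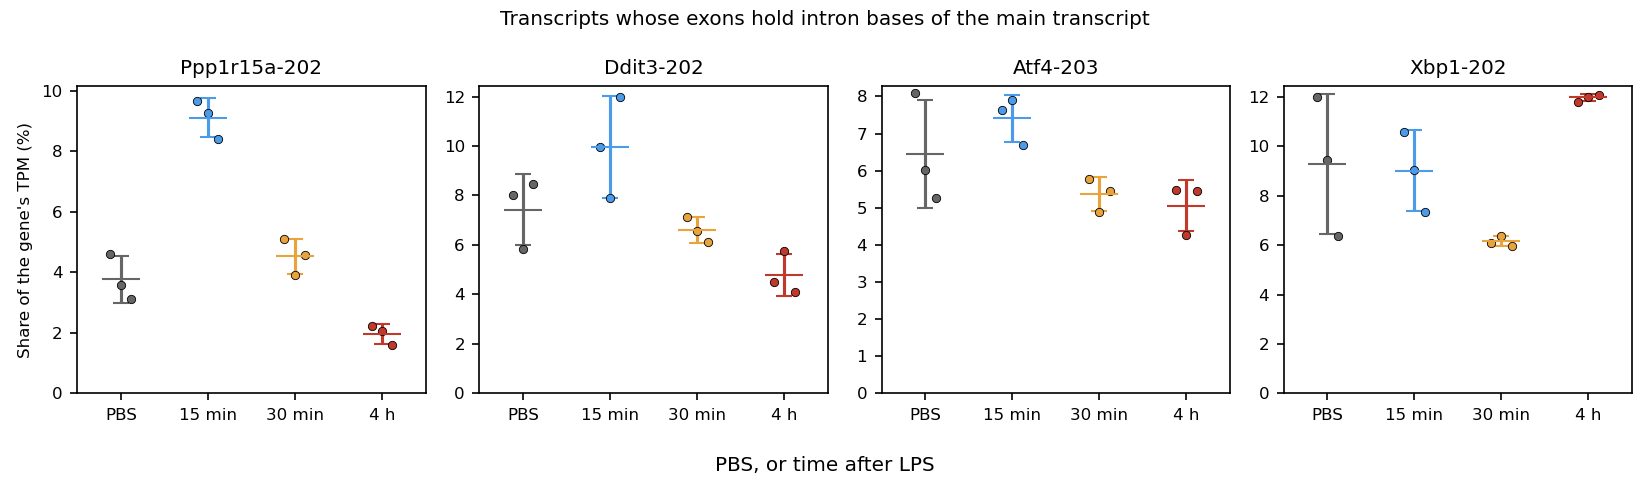
Share of a gene's TPM (%, linear axis from 0) held by 4 annotated transcripts whose exons include intron bases of the main transcript, in PBS and at 3 times after LPS. Points are libraries, the horizontal line is the mean of 3, and bars are the SD. Ppp1r15a-202 is above PBS in every library of 15 min (8.40 to 9.66%), and the other 3 transcripts plotted have PBS and 15 min libraries that overlap.

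Ddit3 (chr10:127290774-127296288, plus strand) encodes CHOP, the pro-apoptotic C/EBP relative downstream of ATF4. It measured 18.1, 18.5, and 19.7 CPM in PBS, 27.9, 26, and 27.3 at 15 min, 31.1, 30.9, and 33 at 30 min, and 43.2, 39.0, and 43.0 at 4 h. Each group lay above the one before by CPM. Against PBS the log2 fold change was 0.53 (SE 0.0638) at 15 min, 0.76 (SE 0.0638, adjusted p 0.0337 by edgeR) at 30 min, and 1.15 (SE 0.0652, adjusted p 7.23e-09) at 4 h. The call at 30 min was close to the fold limit and was lost without PBS replicate 1 (0.73, adjusted p 0.140), without PBS replicate 2 (0.75, adjusted p 0.107), and without LPS 30 min replicate 3 (0.73, adjusted p 0.145). Under library size scaling the change from 30 min to 4 h turned from 0.40 to -0.14, and the call at 4 h was lost (0.45). Ddit3 shares 68 exonic bases with the antisense gene Mars (methionyl-tRNA synthetase, 36.8 CPM in PBS and 49.1 at 4 h). The library kit does not keep strand, so reads of these bases cannot be told apart. Another annotated gene named Ddit3 shares 105 exonic bases on the same strand and had a mean of 0 CPM in every group.

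Trib3, a pseudokinase that binds ATF4 and dampens its activity, was the gene of the set that was not called at any time against PBS. It measured 9.25, 12.1, and 9.73 CPM in PBS, 10.0, 9.90, and 7.17 at 15 min, 6.07, 4.86, and 6.66 at 30 min, and 13.7, 12.9, and 12.2 at 4 h. All 30 min libraries lay below all PBS libraries, and all 4 h libraries lay above them. At 30 min the log2 fold change was -0.83 (95% interval -1.14 to -0.52, adjusted p 0.274 by edgeR), and a test with no fold limit gave an adjusted p of 0.000121. Library size scaling called it lower at that time (-0.99, adjusted p 0.0328). At 4 h it was 0.31 (95% interval 0.01 to 0.62, adjusted p 1), and -0.39 under library size scaling. Between 30 min and 4 h Trib3 rose by 1.14 (SE 0.155, adjusted p 0.000766), a call that was lost under library size scaling (0.60, adjusted p 0.365). Its relative Trib1 rose at all 3 times, by 0.77 (SE 0.0656), 1.35 (SE 0.0633), and 3.89 (SE 0.0574), the call at 15 min being lost under library size scaling, and Trib2 was not called at any time (-0.33 at 4 h).

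Chac1, Asns, and Sesn2 are targets of ATF4 that act in metabolism. Chac1 degrades glutathione, Asns synthesizes asparagine, and Sesn2 restrains the growth kinase complex mTORC1 when leucine is short. Chac1 measured 2.32, 1.69, and 2.06 CPM in PBS, 1.32, 2.21, and 0.981 at 15 min, 2.43, 1.89, and 1.16 at 30 min, and 13.8, 15.1, and 16.1 at 4 h. The early libraries overlapped with PBS, at 26 to 62 fragments each, and the 4 h libraries, at 179 to 235 fragments, were all higher. At 4 h the log2 fold change was 2.89 (SE 0.234, adjusted p 2.14e-09 by edgeR), the largest after Atf3 among the 10 genes, though its 95% interval (2.40 to 3.38) overlapped with that of Ppp1r15a (2.54 to 2.78). It was -0.44 (95% interval -0.99 to 0.11) at 15 min and -0.14 (95% interval -0.68 to 0.40) at 30 min, neither called.

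Asns showed the same course as Chac1. It measured 12.2, 9.95, and 9.20 CPM in PBS, 8.65, 9.26, and 11.1 at 15 min, 9.06, 8.52, and 9.70 at 30 min, and 39.0, 46.2, and 46.2 at 4 h. By CPM the first 3 groups overlapped, and the 4 h libraries stood clear of them. In the authors' normalized gene table the 30 min libraries (209, 229, and 187) lay below PBS (246, 244, and 250). By TPM they also lay below PBS (9.07 to 11.3 against 14.6 to 14.8). On that scale 4 h (from 19.9) overlapped with 15 min (up to 22.5). The log2 fold change was -0.12 (95% interval -0.35 to 0.12) at 15 min, -0.20 (95% interval -0.44 to 0.04) at 30 min, and 2.07 (SE 0.107, adjusted p 3.32e-12 by edgeR) at 4 h. For both genes the rise from 30 min to 4 h was called, with 3.03 (SE 0.241) for Chac1 and 2.27 (SE 0.111) for Asns.

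Sesn2 (chr4:132492032-132510501, minus strand) changed less, with 6.97, 9.18, and 7.83 CPM in PBS, 8.95, 7.77, and 8.76 at 15 min, 11.1, 11.4, and 11.4 at 30 min, and 16.8, 16.5, and 19.9 at 4 h. The 30 min and 4 h libraries were all above PBS. The log2 fold change was 0.50 (SE 0.117, not called) at 30 min and 1.15 (SE 0.118, adjusted p 3.81e-05 by edgeR) at 4 h, where library size scaling gave 0.44 and no call. Its relatives Sesn1 (0.14) and Sesn3 (0.34) were not called at 4 h.

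**Figure D3:**
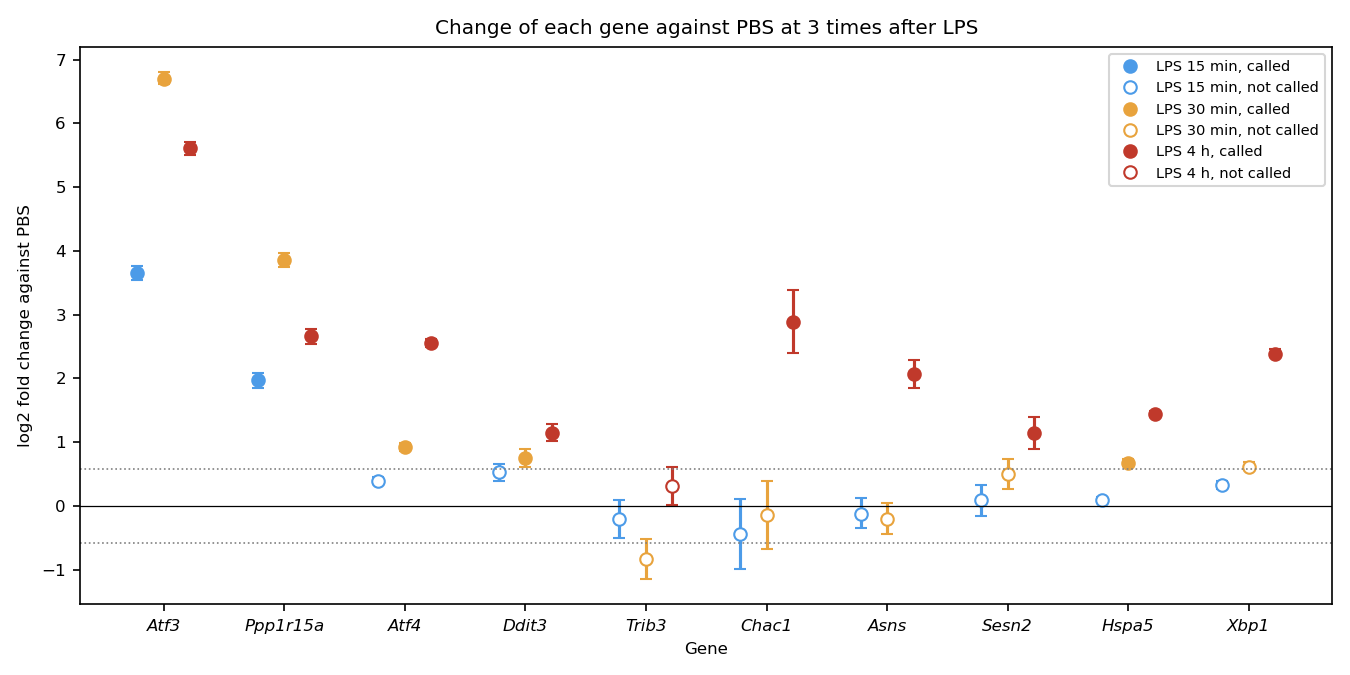
Log2 fold change against PBS for the 10 genes at the 3 times after LPS, with 95% confidence intervals from the edgeR fit of 3 libraries a group. Filled points were called beyond 1.5-fold (dotted lines at 0.585 in either direction). Atf3 and Ppp1r15a reach their largest change at 30 min (6.70 and 3.85), and Chac1 and Asns were not called before 4 h, when they reach 2.89 and 2.07.

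The 4 members whose promoter held the core of the C/EBP-ATF response element, the site bound by ATF4 with a C/EBP partner, did not share a single course. The core was searched as TGATGNAA on both strands in the 250 bases before and 50 bases after each RefSeq start (GRCm38.p6), and 3.97% of the 32851 promoters listed held it. It was present in Atf3, Chac1, Trib3, and Asns. These promoters are shown because the 4 genes share the letters. Atf3 rose from 15 min, Chac1 and Asns at 4 h, and Trib3 was lowest at 30 min. Whether the element bears on these courses was not tested. Capitals mark the match, written 5′ to 3′ on the strand of the gene.

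Atf3 (chr1:191183284-191183583, minus strand): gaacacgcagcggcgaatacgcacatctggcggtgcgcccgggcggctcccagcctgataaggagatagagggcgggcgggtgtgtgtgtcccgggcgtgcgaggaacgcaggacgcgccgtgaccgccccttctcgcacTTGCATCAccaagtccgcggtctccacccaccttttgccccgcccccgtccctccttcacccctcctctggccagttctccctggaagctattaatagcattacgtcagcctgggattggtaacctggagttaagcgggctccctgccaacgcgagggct
Chac1 (chr2:119350992-119351291, plus strand): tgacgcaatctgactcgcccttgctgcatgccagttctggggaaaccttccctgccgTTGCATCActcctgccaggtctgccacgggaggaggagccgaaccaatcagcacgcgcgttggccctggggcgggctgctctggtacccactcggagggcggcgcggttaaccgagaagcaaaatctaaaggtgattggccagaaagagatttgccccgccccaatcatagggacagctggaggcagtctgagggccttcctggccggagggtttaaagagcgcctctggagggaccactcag
Trib3 (chr2:152344011-152344310, minus strand): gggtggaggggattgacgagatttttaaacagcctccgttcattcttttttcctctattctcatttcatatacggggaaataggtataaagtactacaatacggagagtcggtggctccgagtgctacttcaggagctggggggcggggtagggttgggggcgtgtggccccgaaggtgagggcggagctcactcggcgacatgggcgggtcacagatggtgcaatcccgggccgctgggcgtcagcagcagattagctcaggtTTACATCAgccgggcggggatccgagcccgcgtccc
Asns (chr6:7693160-7693459, minus strand): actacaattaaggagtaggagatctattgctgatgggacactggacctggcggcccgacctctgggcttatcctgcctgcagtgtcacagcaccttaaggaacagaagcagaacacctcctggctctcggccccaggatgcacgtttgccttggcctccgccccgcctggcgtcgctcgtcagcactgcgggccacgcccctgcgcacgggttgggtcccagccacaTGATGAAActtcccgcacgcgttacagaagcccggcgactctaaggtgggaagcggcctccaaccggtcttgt

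In Asns the match lies on the strand of the gene and begins 23 bases before the start. In Atf3 and Chac1 it lies on the other strand, where it reads TTGCATCA on the strand of the gene, and begins 110 and 193 bases before the start. In Trib3 it also lies on the other strand and begins at base 15 when the start is counted as 1. Such a match is a description of letters, and binding was not measured. The absence of a match in Atf4, Ddit3, Hspa5, Xbp1, Ppp1r15a, and Sesn2 covers these 300 bases alone.

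Hspa5 encodes BiP, the chaperone of the ER that binds unfolded proteins and holds the sensors inactive. It was the most abundant of the 10 genes in every group on the length-adjusted TPM scale. It measured 408, 399, and 409 CPM in PBS, 433, 438, and 423 at 15 min, 654, 644, and 645 at 30 min, and 1119, 1083, and 1107 at 4 h. Each group lay above the one before. Its log2 fold change was 0.09 (SE 0.0228) at 15 min, 0.68 (SE 0.0228, adjusted p 0.00150 by edgeR) at 30 min, and 1.45 (SE 0.0231, adjusted p 5.80e-21) at 4 h. The call at 30 min was lost under library size scaling (0.51) and with average transcript length taken into account (0.61).

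Xbp1 (chr11:5520659-5525893, plus strand) encodes the transcription factor that IRE1 activates by removing a short intron from its mRNA. It measured 102, 102, and 107 CPM in PBS, 128, 130, and 133 at 15 min, 156, 166, and 156 at 30 min, and 550, 547, and 534 at 4 h. By CPM no groups overlapped, and the course was that of Atf4. The Pearson r between the log2 CPM of the 2 genes was 0.993 over the 12 libraries, which fall into 4 groups. By TPM, Xbp1 at 15 min (123 to 126) and at 30 min (115 to 124) overlapped, and Atf4 did not (138 to 146 and 162 to 172). Its log2 fold change was 0.33 (SE 0.0315) at 15 min and 0.62 (SE 0.0314, adjusted p 0.549 by edgeR) at 30 min, neither called, and 2.39 (SE 0.0311, adjusted p 2.29e-24) at 4 h. None of the 4 quantified Xbp1 transcripts lacks the intron that IRE1 removes, as the shortest gap between exons was 300 bases, so Xbp1 splicing was not measured here.

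Of the ER stress elements, Hspa5 held the full element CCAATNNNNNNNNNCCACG, in which ATF6 is known to bind beside NF-Y. This element was in 0.119% of all promoters listed. Ppp1r15a held the cyclic AMP response element TGACGTCA, which reads the same on both strands and was in 1.79% of promoters. The AP-1 element TGANTCA was in Hspa5 and Ddit3 and in 7.81% of promoters. Both sequences below are shown because Hspa5 and Ppp1r15a followed different courses and carry different elements, in capitals. The AP-1 match of Hspa5 lies before its ER stress element. Whether these elements bear on the courses was not tested. The search took exact letters alone, so TTACGTCA in the Atf3 promoter was not counted as a match to the cyclic AMP element.

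Hspa5 (chr2:34771840-34772139, plus strand): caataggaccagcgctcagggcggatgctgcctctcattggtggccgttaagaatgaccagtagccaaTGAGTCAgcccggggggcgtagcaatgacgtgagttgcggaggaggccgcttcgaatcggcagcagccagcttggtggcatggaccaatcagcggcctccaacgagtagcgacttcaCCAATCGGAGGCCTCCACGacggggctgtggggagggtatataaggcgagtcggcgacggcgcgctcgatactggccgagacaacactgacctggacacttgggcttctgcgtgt
Ppp1r15a (chr7:45526219-45526518, minus strand): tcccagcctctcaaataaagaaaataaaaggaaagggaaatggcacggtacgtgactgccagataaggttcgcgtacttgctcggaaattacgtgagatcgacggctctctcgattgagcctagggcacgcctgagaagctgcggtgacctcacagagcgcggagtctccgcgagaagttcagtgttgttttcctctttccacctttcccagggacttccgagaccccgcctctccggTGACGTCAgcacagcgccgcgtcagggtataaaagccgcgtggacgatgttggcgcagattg

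The ER stress element of Hspa5 begins 65 bases and the AP-1 match 182 bases before the start, and the match of Ppp1r15a begins 12 bases before it. The unfolded protein response element TGACGTGG, searched on both strands and sharing its first letters with the cyclic AMP element, was in none of the 10 promoters and in 0.676% of all. The short 3′ part of the ER stress element, CCACG, which lies inside the full element, was in 6 of 10 member promoters and in 32.8% of all. Hspa5 and Ppp1r15a were both among these 6.

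On the TPM scale, which can be compared between genes but was not corrected for the composition of the libraries, the order of the 10 genes in PBS was Hspa5 (305 ± 27.0, SD, n = 3), Atf4 (109 ± 1.58), Xbp1 (98.7 ± 1.81), Ddit3 (46.1 ± 2.88), Ppp1r15a (27.6 ± 5.71), Asns (14.7 ± 0.115), Trib3 (9.02 ± 1.31), Atf3 (4.12 ± 0.663), Sesn2 (3.80 ± 0.510), and Chac1 (2.25 ± 0.368). Among neighbours in this order, Atf3 and Sesn2 overlapped. At 30 min Atf3 (306 ± 5.81) and Ppp1r15a (278 ± 2.72) stood just below Hspa5 and above Atf4 (167 ± 5.24). At 4 h Atf4 (340 ± 10.3) and Xbp1 (280 ± 3.22) were again above Ppp1r15a (111 ± 13.5) and Atf3 (94.4 ± 0.851). Trib3 stood lower at 4 h (5.98 ± 0.425 TPM) than in PBS on this scale, and Ddit3 was lower at 4 h (55.8 ± 3.61) than at 30 min (64.6 ± 1.95). A gene's TPM sums all its annotated transcripts, so short forms with few fragments weigh heavily. At 4 h Ppp1r15a-203 (389 bases, 4.02% of fragments) held 47.7 TPM, and Ppp1r15a-201 held 61.1. In PBS Asns-206 (448 bases, 7.08% of fragments) held 5.89 TPM, and Asns-201 held 8.79, with shares from 50.7 to 72.1%. The places of Ppp1r15a above Atf3 at 4 h and of Asns above Trib3 in PBS rest on these short forms.

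The wider pathway was described with 9 lists, of which 118 of 119 genes other than the members were tested, Fgf21 being the exception. At 15 min 7 of the 118 were called higher (5.93%, where 3.31% of all genes were) and 0 lower (background 0.872%). At 30 min 12 were called higher (10.2%, background 3.78%) and 0 lower (background 0.799%), and at 4 h 40 higher (33.9%, background 19%) and 3 lower (2.54%, background 13.8%). The counts for single lists below are to be read against these same background shares. The median log2 fold change was -0.02, 0.10, and 0.38. At 4 h the split rests on the scaling, with 93.0% of the calls among these genes higher under TMM but 35.1% (20 higher, 37 lower) under library size scaling. Those lower calls were 9 among the ER chaperones, 7 in ER-associated degradation, 6 each among amino acid genes and other targets, 4 each among the eIF2 factors and the sensors, and 1 each among the synthetases and the relatives, where a gene on more than 1 list, such as Eif2ak3, is counted in each. Over all genes tested the shares were 58.0% and 18.2% at 4 h, and 82.6% and 61.4% at 30 min.

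Upstream of ATF4, the eIF2 kinases differed from each other. At 4 h Eif2ak2, which encodes PKR, the interferon-inducible kinase for double-stranded RNA, went from 29.5 to 520 CPM, a log2 difference of 4.14 (SE 0.0389, adjusted p 7.19e-28 by edgeR). Eif2ak4, which encodes the amino acid sensor GCN2, rose by 1.30 (SE 0.0944), a call lost under library size scaling. Eif2ak3, which encodes the ER sensor PERK, was at -0.24 (SE 0.0694), and Eif2ak1, which encodes the heme-regulated kinase, at 0.13 (SE 0.0721), neither called. Eif2s1, the eIF2 subunit that the kinases phosphorylate, rose by 1.77 (SE 0.0794). The 5 subunits of its exchange factor, Eif2b1 to Eif2b5, lay between -0.28 and 0.19 and were not called. None of these genes was called at 15 min or 30 min.

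Among the ER stress sensors and their processing factors, 3 of 10 were called higher at 4 h and 0 at 15 min and 30 min. Ern1, which encodes IRE1, rose by 1.45 (SE 0.0548), its adaptor Traf2 by 1.58 (SE 0.0610), and Atf6 by 1.12 (SE 0.0707), the last a call lost under library size scaling. Atf6b (-0.36), Creb3l2 (-0.57), Mbtps1 (-0.64, adjusted p 0.0727 by edgeR), Mbtps2 (0.00), Rtcb (0.24), and Creb3 (0.19) were not called, nor was Eif2ak3. Mbtps1 and Mbtps2 are the proteases that release ATF6, and Rtcb is the ligase that joins spliced Xbp1 mRNA.

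The bZIP partners of ATF4 and CHOP held the largest changes of the lists. Cebpd measured 31.5 CPM in PBS and 95.9, 379, and 1694 at the 3 times after LPS, with log2 fold changes of 1.61, 3.59, and 5.75. Cebpb measured 18.6 CPM in PBS and rose by 3.05 (SE 0.0495) at 30 min and 5.32 (SE 0.0484) at 4 h, after 0.53 at 15 min, which was not called. Cebpg, known as a partner of ATF4 at amino acid response genes, rose by 0.80 (SE 0.0354) at 30 min and 1.74 (SE 0.0353) at 4 h. In all, 1, 4, and 7 of the 11 genes were called higher at the 3 times. Batf (4.07), Nfe2l2 (2.74), Jdp2 (1.34), and Atf5 (0.78) were the others called at 4 h, and Cebpa (0.69), Nfe2l1 (0.56), Atf2 (0.16), and Atf7 (0.05) were not called. The calls of Cebpg and Jdp2 at 30 min and of Jdp2 and Atf5 at 4 h were lost under library size scaling.

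The aminoacyl-tRNA synthetase list holds enzymes that charge tRNAs, many of them known ATF4 targets, together with the tRNA exporter Xpot. Of its 13 genes, 9 were called higher at 4 h, with a median of 0.79, and 0 at 15 min and 30 min. Wars was highest, from 69.5 to 479 CPM (2.78, SE 0.0411, adjusted p 1.31e-23 by edgeR), a gene that interferon-gamma is also known to induce. Cars (1.24), Gars (1.18), Iars (1.15), Tars (1.14), Nars (1.01), Aars (0.79), Yars (0.78), and Eprs (0.72) were called as well. Under library size scaling Wars alone of these 9 was called higher and the median was 0.08. Sars (-0.22), Lars (0.30), Mars (0.42), and the tRNA exporter Xpot (0.64) were not called.

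Genes of amino acid synthesis and transport went in both directions at 4 h, with 4 of 18 called higher and 2 lower. Mthfd2, a mitochondrial enzyme of one-carbon metabolism, rose from 3.98 to 42.2 CPM (3.40, SE 0.142). Slc7a11, the cystine transporter, rose by 2.62 (SE 0.0333) and Slc38a2, a transporter of small neutral amino acids, by 1.62 (SE 0.0336), after 1.2 at 30 min. Slc7a5, the large neutral amino acid transporter of the blood-brain barrier, went the other way, from 474 CPM in PBS to 746 at 15 min (0.65, SE 0.0239, adjusted p 0.0279 by edgeR, not called under library size scaling) and 69.2 at 4 h (-2.78, SE 0.0289, adjusted p 1.79e-26). Slc6a9, a glycine transporter, fell by 0.93 (SE 0.0703), and Slc1a4, an alanine, serine, and cysteine transporter, rose by 0.80 (SE 0.0786), a call lost under library size scaling. Serine synthesis genes Phgdh (-0.29), Psat1 (0.68), and Psph (-0.31) were not called.

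Few of the ER chaperones and folding enzymes other than Hspa5 were called. Of 18 tested, 0, 1, and 1 were called higher at the 3 times and 0 lower. The gene called at 30 min and at 4 h was Manf, a secreted ER stress protein, at 0.76 (SE 0.0422) and 0.76 (SE 0.0439), and neither call held under library size scaling. At 4 h Hsp90b1 (0.19), Calr (0.17), Canx (0.48), Pdia4 (-0.48), Pdia6 (0.32), Hyou1 (0.16), Dnajb9 (0.44), Dnajc3 (0.43), and Sdf2l1 (-0.17) were not called, with Hspa5 at 1.45. Whether Hspa5 differed from these genes was not tested, and under library size scaling their median at 4 h was -0.61.

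The list for ER-associated degradation, which returns misfolded proteins to the proteasome, had 1, 2, and 4 of 17 genes called higher, the last of these beside a background of 19%. Herpud1, a ubiquitin-like ER membrane protein, was called at 15 min (0.89, SE 0.0315), 30 min (1.16, SE 0.0315), and 4 h (0.83, SE 0.0331). Derl3 was called at 30 min (1.67, SE 0.288), from 1.08 to 3.45 CPM, and was at 0.07 at 4 h. Syvn1 (1.08), Sec24d (0.83), and Nploc4 (0.68) were called at 4 h, and Edem2 fell by 0.99 (SE 0.0706). Sec24d, though on this list, is a coat protein of export from the ER. The 4 higher calls at 4 h were all lost under library size scaling.

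Among other targets of ATF4 and CHOP, 5 of 14 were called higher at 4 h, and the 5 calls held under library size scaling. Cdkn1a, the cell cycle inhibitor p21, rose at each time, from 76.3 CPM in PBS to 155, 408, and 1398 (1.02, 2.42, and 4.20, SE 0.0269, 0.0266, and 0.0277). Tnfrsf10b, a death receptor, rose by 1.49 (SE 0.0795) at 30 min and 1.71 (SE 0.0816) at 4 h, and Bcl2l11, which encodes the pro-apoptotic BIM, by 1.45 (SE 0.0943) at 4 h. Ddit4, an inhibitor of mTORC1, was called at 15 min (0.87, SE 0.0405) and at 4 h (1.45, SE 0.0411) but not at 30 min (0.54, SE 0.0410). Nupr1 rose by 1.56 (SE 0.0495) at 4 h. Gdf15 (0.35), Bbc3 (-0.44), Vldlr (-0.01), and Stc2 (-0.59) were not called.

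Of the chaperones related to Hspa5, the cytosolic Hspa8 rose at all times, by 1.28 (SE 0.0189), 1.94 (SE 0.0192), and 1.25 (SE 0.0189), and was highest at 30 min like Atf3. The mitochondrial Hspa9 rose at 4 h by 1.01 (SE 0.0340). Both calls at 4 h were lost under library size scaling. Hspa13 (0.57) and the Chac1 relative Chac2 (-0.05) were not called at 4 h.

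**Figure D4:**
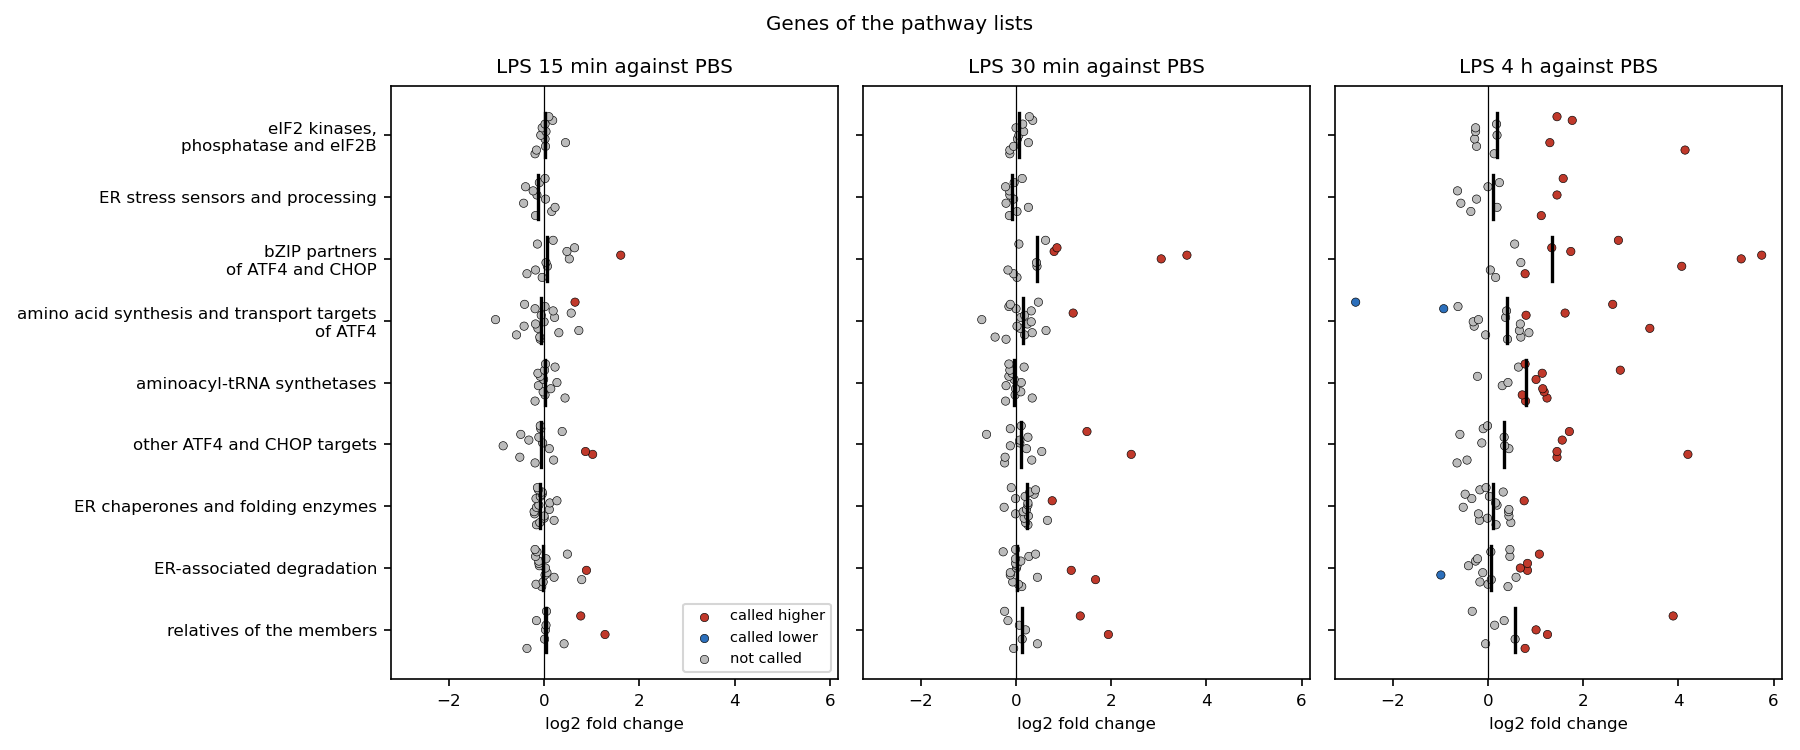
Log2 fold change against PBS (horizontal axis) of each tested gene of the 9 pathway lists (rows) at the 3 times after LPS (panels), without the 10 members. Each point is 1 gene, red where called higher, blue where called lower, and grey where not called, and the black line is the median of the points. Called higher are 5.93% of these genes at 15 min and 10.2% at 30 min, where 3.31% and 3.78% of all genes are. At 4 h the bZIP partners reach 5.75, and the medians of the ER chaperones and of ER-associated degradation stay near 0. Under library size scaling those medians were -0.61 and -0.63.

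The genes most like each member in log2 CPM were found among 12802 genes with a mean of at least 5 CPM, over the 12 libraries. For Atf3 these were Hsp90aa1 (Pearson r 0.996), Zfp36 (0.995), and Zbtb10 (0.992), and for Ppp1r15a Egr1 (0.996), Hspb1 (0.995), and Alas1 (0.992). Hipk1, Tpm4, and Triobp (0.999 each) were most like Atf4, and Katna1 and Mafk (0.999 each) followed the pseudogene Gm8995 (0.999) for Xbp1. Asns was nearest to Taf15 (0.996), Hivep1 (0.995), and S1pr3 (0.994), Hspa5 to Serpina3g, Noct, and Bcl3 (0.998 each), and Chac1 to Dbnl (0.988), Mmp12 (0.987), and Glipr2 (0.986). Ddit3 was nearest to Hbb-bt (0.996), Tnfrsf12a (0.995), and the bZIP gene Jdp2 (0.995), Sesn2 to Rab11a (0.985), Ptprf (0.983), and Tmem67 (0.981), and Trib3 to Hid1 (0.939), Ndst2 (0.939), and Zfp507 (0.929). These values describe 4 groups of 3 libraries and carry no test.

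Markers of other cells moved with the groups in which the members changed. The summed CPM of the 7 endothelial markers was 8909 to 9197 in PBS and 6021 to 6080 at 4 h, when 5 of 7 were called lower and Cdh5 higher. Neutrophil markers summed to 1.99 to 2.67 CPM in PBS and 163 to 169 at 4 h, with 4 of the 4 tested called higher, and Ly6g did not pass the filter. Astrocyte markers went from 376 to 406 CPM in PBS to 951 to 1000 at 4 h (3 of 6 higher), and microglia markers from 103 to 110 CPM to 64.5 to 69.3 (3 of 6 lower). At 30 min the 4 skeletal muscle markers summed to 123 to 131 CPM, against 4.08 to 7.12 in PBS, and all 4 were called higher. They were called higher at 4 h as well, at 14.9 to 22 CPM. At 15 min neuron markers summed to 480 to 491 CPM, against 307 to 319 in PBS (2 of 5 higher), and smooth muscle markers to 1488 to 1508, against 2346 to 2382 (3 of 4 lower). These marker calls were made under TMM scaling alone. At 4 h the smallest higher calls were Gfap (0.65) and Acta1 (1.08), beside the shift of -0.704 under library size scaling. Most of the astrocyte sum at 4 h was Gja1, which went from 74.6 CPM in PBS to 522. No marker was at 0 in every library. The part of these marker changes in the values of the 10 genes was not tested.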

How the data were processed

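RNA of cerebral vessels was converted to cDNA with the SMART-Seq v4 kit and sequenced as paired ends after Nextera XT fragmentation, which keeps no strand. Per the labels, the authors used Salmon 1.2.1, DESeq2, and genome build GRCm38.p6. The deposited per-library files hold estimated counts of fragments and TPM for each transcript. The deposited gene table holds a normalized signal, gene counts scaled by the authors with size factors of DESeq2 and, judged from its ratio to the summed estimates, for average transcript length; all 12 of its columns were closest to their own library.

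Transcripts were joined to GENCODE M21 (0.482 to 0.850% of fragments did not join), and estimated counts were summed to 54119 genes and rounded. Depth was 18.3 to 25.9 M fragments a library. In edgeR 4.0.16 (R 4.3.3), filterByExpr (minimum count 10, total 15, share 0.7) kept 19150 genes; 1 quasi-likelihood fit of all 12 libraries with TMM factors was followed by glmTreat against 1.5-fold, with Benjamini-Hochberg adjustment over all genes tested. The common biological coefficient of variation was 0.0524. SE was computed as |log2 fold change|/√F, with F from the quasi-likelihood test. P-values reflect the spread between libraries within a group, each a separate pool of mice. They do not cover a difference in vessel preparation between groups. The sources used here do not say how preparations were spread over the groups.

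Alternatives were DESeq2 1.42.0, RLE factors, library size only, no filter, no fold limit, a transcript length offset, a fit on the groups compared, a replicate block, limma 3.58.1 on the gene table (pseudocounts 1 and 10), and leaving out each library. The members and lists were chosen with earlier results of these data known. Named genes were all members, every stress sensor and eIF2 kinase, every gene of lists of up to 12, up to 4 called genes with the largest change in each direction per list and comparison, and the 3 genes most like each member; other list genes were named after their values were seen. A blastn search of the members' coding transcripts against all GENCODE transcripts found 0 genes of another name with at least 90% identity over 150 bases. Entries that share a member's name were not counted. Promoters came from RefSeq (GRCm38.p6), with 1 for each of the 10 members. Protein sequences were not used here.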

Additional observations from a re-analysis of the deposited data

Results flagged for a closer look

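The change against PBS differed between times, as the direct comparison of the times by edgeR's quasi-likelihood test shows, for 2 of the 10 genes from 15 min to 30 min (both higher, where 2.69% of all genes were) and for 8 of 10 from 30 min to 4 h (6 higher and 2 lower, where 16.9% and 11.8% of all genes were). From 15 min to 30 min, Atf3 rose by 3.04 on the log2 scale and Ppp1r15a by 1.88. From 30 min to 4 h, Atf3 fell by 1.10 and Ppp1r15a fell by 1.19, while Chac1 rose by 3.03, Asns by 2.27, Xbp1 by 1.77, Atf4 by 1.63, Trib3 by 1.14, and Hspa5 by 0.77. The rises of Trib3 and Hspa5 were not called under library size scaling, and the fall of Ppp1r15a was not called with a transcript length offset (-0.74, adjusted p 0.0834) or with limma on the gene table.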

How the results depend on the processing

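With no fold limit the number of the 10 genes called was 6 at 15 min and 8 at 30 min against PBS, and 8 from 15 min to 30 min, and the other pathway genes called were 64, 67, and 98 at the 3 times against PBS, in place of 7, 12, and 43; of all genes tested 38.6%, 36.9%, and 68.5% passed without the limit at these times, and 37.4% from 15 min to 30 min. At 30 min, 3 members were called with a transcript length offset and 3 with limma on the gene table at either pseudocount, in place of 5. The remaining settings, and leaving out any 1 library, kept each count over both directions within 1.5 times. Library size scaling changed the split within these counts, to 3 higher and 1 lower of the members at 30 min (from 5 and 0) and to 20 higher and 37 lower of the other pathway genes at 4 h (from 40 and 3). The fit with a replicate block called 2, 5, and 9 members against PBS, as the fit without it did. Libraries with the same number did not deviate together (18 pairs, r from -0.0489 to 0.0679), so the numbers were not taken as pairs. Of single genes, library size scaling turned Ddit3 from 30 min to 4 h (-0.14) and Trib3 at 4 h (-0.39), neither called there. Changes near 0 also turned: Asns at 15 min was 0.08 with the length offset, 0.003 and 0.01 with limma, and between -0.22 and 0.01 with 1 library left out. With 1 library left out, Chac1 at 30 min ranged from -0.40 to 0.10, Asns from 15 min to 30 min from -0.17 to 0.02, and Sesn2 at 15 min from -0.0007 to 0.20. Ddit3 at 30 min was not called with DESeq2 (adjusted p 0.488), without the filter (0.0721), or with the length offset (0.0556), and Trib3 at 30 min was called under library size scaling (-0.99, adjusted p 0.0328). The causes were not tested. Depth limits Chac1 most, with as few as 26 fragments a library. Xbp1 splicing could not be measured from the transcripts quantified.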
